A study of Homo sapiens with 16 samples.

Results

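DUSP4, DUSP5, DUSP6, SPRY2, SPRY4, SPRED1, SPRED2, PHLDA1, ETV4 and ETV5 are 10 genes whose transcripts are known to follow the activity of the ERK kinases. They were found by NCBI gene number among the 27434 gene rows of each expression table, 1 row a gene, and no row was shared with another gene. The tables came from poly(A) RNA of 16 libraries, in 8 groups of 2, made to study SAM68 (gene symbol KHDRBS1), an RNA-binding protein, together with NORAD, a long noncoding RNA that binds Pumilio proteins. The U2OS libraries, from an osteosarcoma line of wild-type genotype, held cells given a pool of siRNAs to SAM68, cells given control siRNA, cells given a SAM68 plasmid and cells given a control plasmid (a pcDNA3.1 vector without the gene). The HCT116 libraries, from a colon carcinoma line, held SAM68 KO cells given NORAD siRNA, SAM68 KO cells given control siRNA, WT cells given NORAD siRNA and WT cells given control siRNA. Every siRNA was used at 50 nM and each plasmid at 100 ng per 20000 cells, by lipid transfection, and cells were harvested after 48 h. The NORAD siRNA was also a pool, the control siRNA was a non-targeting pool, the SAM68 plasmid carries the mouse gene with an HA tag, and whether the SAM68 KO line is 1 clone is not given in the sources used here. The labels do not say whether replicate libraries were grown as separate cultures, so p-values measure the spread between these libraries, which may be technical.

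In the RAS-ERK cascade a growth factor receptor activates RAS, RAS activates RAF kinases, RAF activates MEK, and MEK phosphorylates ERK. Active ERK switches on genes that damp the same cascade: dual-specificity phosphatases (DUSP) take the phosphate off ERK, while Sprouty (SPRY) and SPRED proteins act on the steps around RAS. ETV4 and ETV5 are ETS transcription factors of the PEA3 family that carry part of the transcriptional output, and the repressor CIC holds several of these genes off until ERK relieves it. For that reason transcripts of this set are widely read as a measure of ERK output in tumour cells.

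Expected counts summed to between 11349545 and 27387412 per library. The targeted transcripts were checked first. KHDRBS1 averaged 37.3 ± 5.60 CPM (counts scaled to library size) in the 4 SAM68 KO libraries and 222 ± 14.7 CPM in the 4 WT libraries (SD). NORAD averaged 66.0 CPM with NORAD siRNA against 238 CPM with control siRNA in SAM68 KO cells, and 48.8 CPM against 241 CPM in WT cells. In U2OS, KHDRBS1 averaged 64.6 CPM with SAM68 siRNA against 247 CPM with control siRNA, and 562 CPM with the SAM68 plasmid against 248 CPM with the control plasmid. That plasmid carries the mouse gene while the reference was human, so its value does not measure the size of the overexpression. Summed mesenchymal and bone markers ran from 4352 to 7003 CPM in the U2OS libraries and from 13.1 to 22.2 CPM in the HCT116 libraries, with TWIST1 at 0 in U2OS and COL1A2 at 0 in HCT116. Summed colon epithelial markers ran from 639 to 1259 CPM in U2OS and from 3657 to 5093 CPM in HCT116, where VIL1 was at 0. Markers of blood, endothelial and liver cells, 7 genes, summed to at most 1.37 CPM in any library.

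The promoter regions of 4 of these genes are shown because the levels described next separate them: DUSP6 and SPRY4 were near the counting floor in U2OS and abundant in HCT116, PHLDA1 was lower in U2OS, and SPRED2 was expressed in both lines. Each line gives the 250 bases before the annotated start, from RefSeq on GRCh38.p14, all on the minus strand and written 5′ to 3′. Capitals mark matches on either strand to AGGAAG (the PEA3 form of the ETS site), to CCGGAA (the general ETS form) and to the octamer bound by CIC, searched as TGAATGAA, TGAATGGA, TCAATGAA and TCAATGGA. The windows are chr12:89352502-89352751 for DUSP6, chr5:142324248-142324497 for SPRY4, chr12:76031777-76032026 for PHLDA1 and chr2:65432600-65432849 for the first start of SPRED2.
DUSP6: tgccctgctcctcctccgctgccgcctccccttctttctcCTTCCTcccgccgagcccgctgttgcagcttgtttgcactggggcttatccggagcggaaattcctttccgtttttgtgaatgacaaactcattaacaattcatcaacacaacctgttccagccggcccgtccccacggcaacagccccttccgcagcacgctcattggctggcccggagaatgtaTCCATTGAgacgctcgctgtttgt
SPRY4: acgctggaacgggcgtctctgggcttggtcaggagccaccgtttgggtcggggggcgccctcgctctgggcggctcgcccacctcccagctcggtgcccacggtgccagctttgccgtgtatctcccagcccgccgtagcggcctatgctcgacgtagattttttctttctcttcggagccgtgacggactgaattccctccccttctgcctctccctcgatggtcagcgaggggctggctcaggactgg
PHLDA1: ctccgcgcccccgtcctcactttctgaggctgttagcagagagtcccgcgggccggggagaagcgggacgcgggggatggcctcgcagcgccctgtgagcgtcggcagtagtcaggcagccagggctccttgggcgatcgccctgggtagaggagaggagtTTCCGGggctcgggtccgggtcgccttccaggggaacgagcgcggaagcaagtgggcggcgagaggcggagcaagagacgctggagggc
SPRED2: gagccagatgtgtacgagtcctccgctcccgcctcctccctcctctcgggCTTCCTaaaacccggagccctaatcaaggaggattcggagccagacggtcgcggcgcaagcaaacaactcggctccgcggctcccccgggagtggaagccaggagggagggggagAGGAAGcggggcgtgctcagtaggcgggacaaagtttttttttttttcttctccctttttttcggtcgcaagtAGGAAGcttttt

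The CIC octamer was found in the DUSP6 window, with its first base 24 bases before the start, and in none of the other member windows. Over all 35114 promoter windows of the same length in the RefSeq table, 3.2% held it. AGGAAG matched once in the DUSP6 window and 3 times in the SPRED2 window, and 28.7% of all windows held it. CCGGAA matched once in the PHLDA1 window, 89 bases before the start, and 14.5% of all windows held it. The SPRY4 window held none of these forms, only 2 copies of the 4-letter ETS core GGAA, which lies inside both ETS forms and occurs in 92.7% of all windows. The table also has windows for SPRY2 (3 starts), SPRED1 and a second start of SPRED2. AGGAAG matched in each of these further windows, 2 times in that of SPRED1 and once in each other. CCGGAA also matched once in the window of 1 SPRY2 start, 142 bases before it. These forms therefore did not set apart the genes that differed between the lines. There is no window for DUSP4, DUSP5, ETV4 and ETV5. A match is a run of letters and no evidence of binding.

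Between U2OS and WT HCT116 cells, both with control siRNA, the phosphatases and SPRY4 stood furthest apart. DUSP4, DUSP6 and SPRY4 were near the counting floor in U2OS and had at least 1426 reads in each HCT116 library. DUSP5 and PHLDA1 were lower in U2OS by several fold, ETV5 was modestly lower and ETV4 higher, while SPRY2, SPRED1 and SPRED2 did not pass the test. The test was edgeR's quasi-likelihood test with Benjamini-Hochberg adjustment over all genes. At an adjusted p of 0.05, 7 of the 10 members passed, 1 higher and 6 lower in U2OS. Of all 16444 genes tested 65.4% passed, 5862 higher and 4898 lower in U2OS. The median log2 difference of the members was -1.89, against 0.10 for all genes tested. The labels give no sequencing date, so cell line and any batch cannot be told apart. In bulk libraries, fewer expressing cells and less RNA per cell cannot be told apart either.

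DUSP4, a nuclear phosphatase of ERK and related kinases, had 1 and 5 reads in the U2OS control siRNA libraries, against 2302 and 1426 reads in the HCT116 WT control siRNA libraries. Its pooled level was 854-fold lower in U2OS, with a 95% exact interval from 392-fold to 2329-fold that covers counting error only. Across all 8 U2OS libraries it had 12 reads in total, and 2 of those libraries had none. DUSP6, the cytoplasmic phosphatase selective for ERK, had 21 and 13 reads in U2OS control siRNA libraries against 2302 and 1507 reads in HCT116, a level 154-fold lower in U2OS (95% interval 110.0 to 222.7). SPRY4, a Sprouty inhibitor of receptor signalling, had 9 and 6 reads in U2OS against 2240 and 1722 reads in HCT116, 363-fold lower in U2OS (95% interval 220 to 649). The edgeR log2 differences were -9.65 ± 0.36 for DUSP4, -7.22 ± 0.26 for DUSP6 and -8.47 ± 0.32 for SPRY4 (SE, n = 2 libraries each, edgeR adjusted p 8.5e-11, 6.62e-11 and 8.78e-11).

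DUSP5, a nuclear phosphatase specific for ERK, had 3.57 and 4.74 CPM per kilobase of transcript in the U2OS control siRNA libraries, against 56.7 and 73.4 CPM per kilobase in HCT116 WT control siRNA libraries. Its log2 difference was -3.95 ± 0.26 (SE, edgeR adjusted p 1.34e-08). PHLDA1, a pleckstrin-homology-like protein whose transcript is induced by ERK, had 5.80 and 5.41 CPM per kilobase in U2OS against 44.4 and 41.3 in HCT116. The libraries of the lines did not overlap for either gene, and PHLDA1's log2 difference was -2.93 ± 0.15 (SE, edgeR adjusted p 1.38e-09).

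The ETS factors differed from each other. ETV4 had 39.7 and 37.9 CPM per kilobase in U2OS control siRNA libraries against 27.3 and 26.0 in HCT116 WT libraries, a log2 difference of 0.60 ± 0.15 (SE, edgeR adjusted p 0.00288). ETV5 had 11.2 and 12.1 CPM per kilobase in U2OS against 19.9 and 22.6 in HCT116, a log2 difference of -0.86 ± 0.21 (SE, edgeR adjusted p 0.00208). ETV4 was thus above, and ETV5 below, the HCT116 libraries in both U2OS libraries. Over all 8 libraries of each line ETV5 overlapped, from 11.2 to 20.1 CPM per kilobase in U2OS and from 14.9 to 22.6 in HCT116. With an offset for GC content and transcript length the ETV4 difference was 1.21 (edgeR adjusted p 6.34e-08). The Sprouty and SPRED genes that did not pass had log2 differences of -0.02 ± 0.31 for SPRY2, an inhibitor of receptor signalling, -0.08 ± 0.21 for SPRED1, which brings the RAS inactivator neurofibromin to the membrane, and 0.38 ± 0.19 for SPRED2 (edgeR adjusted p 0.959, 0.752 and 0.0833). With the same offset, SPRED1 passed and was lower in U2OS, at -0.56 (edgeR adjusted p 0.00157). SPRED1 has the lowest transcript GC content of the 10 genes, 38.9%.

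Ordered by median CPM per kilobase over 8 libraries, the leading members of U2OS were ETV4 at 55.4, SPRED2 at 21.4 and ETV5 at 16.5, followed by DUSP5 at 7.32, SPRED1 at 4.30, SPRY2 at 3.81 and PHLDA1 at 3.43. DUSP6 at 0.205, SPRY4 at 0.0446 and DUSP4 at 0.0114 CPM per kilobase came last. The ranges of SPRED2 and ETV5 overlapped, those of DUSP5, SPRED1, SPRY2 and PHLDA1 overlapped from each to the next, and so did those of SPRY4 and DUSP4. The order of DUSP5, SPRED1, SPRY2 and PHLDA1 turned between the arms of U2OS. With control plasmid DUSP5 averaged 9.12, SPRY2 4.32, SPRED1 4.16 and PHLDA1 2.44 CPM per kilobase, and with control siRNA PHLDA1 averaged 5.61, SPRED1 4.50, DUSP5 4.16 and SPRY2 2.90. In HCT116 the order was DUSP5 at 66.5, PHLDA1 at 49.1, DUSP6 at 34.3, ETV4 at 25.1, DUSP4 at 23.5, SPRY4 at 22.7, ETV5 at 20.2, SPRED2 at 13.2, SPRED1 at 5.00 and SPRY2 at 3.30 CPM per kilobase. There the ranges of DUSP5 and PHLDA1 overlapped, as did those of each neighbour from ETV4 to SPRED2. The deposited TPM values, which are scaled to a fixed total in each library, kept DUSP5, PHLDA1, DUSP6 and ETV4 as the first 4 in HCT116, and ETV4, SPRED2 and ETV5 as the first 3 in U2OS. By TPM, SPRY4 stood before DUSP4 in HCT116, and PHLDA1 before SPRY2 in U2OS.

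**Figure D1:**
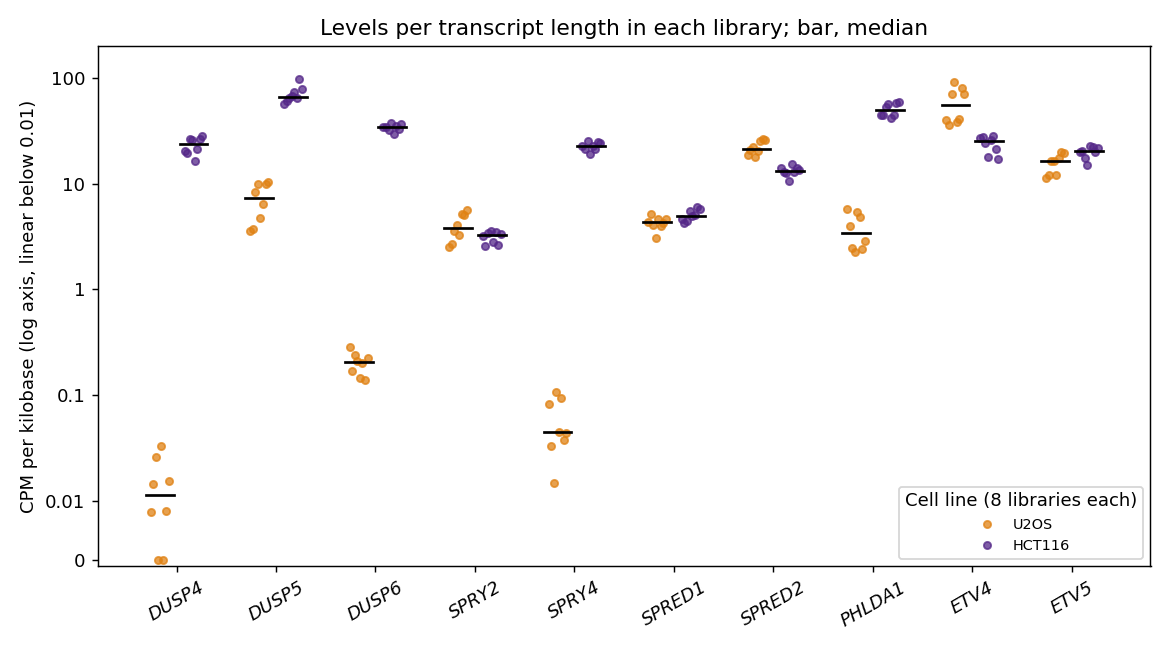
Levels of the 10 genes in CPM per kilobase of effective transcript length, on a log axis that is linear below 0.01, with U2OS at left and HCT116 at right of each pair (8 libraries each, points; bar, median). DUSP4, DUSP6 and SPRY4 have U2OS medians of 0.0114, 0.205 and 0.0446 and HCT116 medians of 23.5, 34.3 and 22.7, while the ranges of SPRY2, SPRED1 and ETV5 overlap between the lines.

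SAM68 KO HCT116 cells had higher DUSP4 and PHLDA1 and lower ETV4 than WT cells. Loss of SAM68 and any other difference between the SAM68 KO and WT cells cannot be told apart here. Averaged over both siRNAs, DUSP4 was 1.39-fold and PHLDA1 1.30-fold of the WT level in SAM68 KO cells, and ETV4 was 0.75-fold. The other 7 genes did not pass. These 3 of 10 members compare with 17.6% of the 13764 genes tested in HCT116 that passed in the same comparison. The median log2 fold change of the members was 0.10, against -0.01 for all genes tested.

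DUSP4 had 137.6 and 149 CPM in SAM68 KO cells with NORAD siRNA and 141 and 141 CPM in SAM68 KO cells with control siRNA, against 103 and 113 CPM in WT cells with NORAD siRNA and 107 and 86.5 CPM in WT cells with control siRNA. All 4 SAM68 KO libraries were above all 4 WT libraries. Its log2 fold change was 0.47 ± 0.09 (SE, n = 4 libraries each, edgeR adjusted p 0.0114). The transcript had at least 1426 reads in each HCT116 library.

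PHLDA1 had 315 and 331 CPM in SAM68 KO cells with NORAD siRNA and 298 and 319 CPM in SAM68 KO cells with control siRNA, against 248 and 249 CPM in WT cells with NORAD siRNA and 246 and 227 CPM in WT cells with control siRNA. Its SAM68 KO and WT libraries did not overlap. The log2 fold change was 0.38 ± 0.07 (SE, n = 4 libraries each, edgeR adjusted p 0.0105).

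ETV4 had 34.4 and 31.8 CPM in SAM68 KO cells with NORAD siRNA and 45.3 and 40.1 CPM in SAM68 KO cells with control siRNA, against 51.6 and 51.3 CPM in WT cells with NORAD siRNA and 51.3 and 46.9 CPM in WT cells with control siRNA. All SAM68 KO libraries were below all WT libraries, and those with NORAD siRNA were the lowest. The log2 fold change was -0.42 ± 0.08 (SE, n = 4 libraries each, edgeR adjusted p 0.0138). ETV4 has the highest transcript GC content of the 10 genes, 60.8%, and with an offset for GC content and transcript length its log2 fold change was -0.22 (edgeR adjusted p 0.0327).

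Those 3 genes were also the only members whose 4 SAM68 KO libraries did not overlap the 4 WT libraries, and 19.1% of all genes tested did not overlap. Without the first WT library with NORAD siRNA none of the 10 genes passed, with edgeR adjusted p of 0.0754 for DUSP4, 0.0739 for PHLDA1 and 0.0796 for ETV4. Without the first SAM68 KO library with NORAD siRNA only PHLDA1 passed, at 0.0445, and without the second WT library with NORAD siRNA PHLDA1 did not, at 0.0504. Over all genes the number passing ran from 201 to 3144 as single libraries were left out, against 2424 with all.

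**Figure D2:**
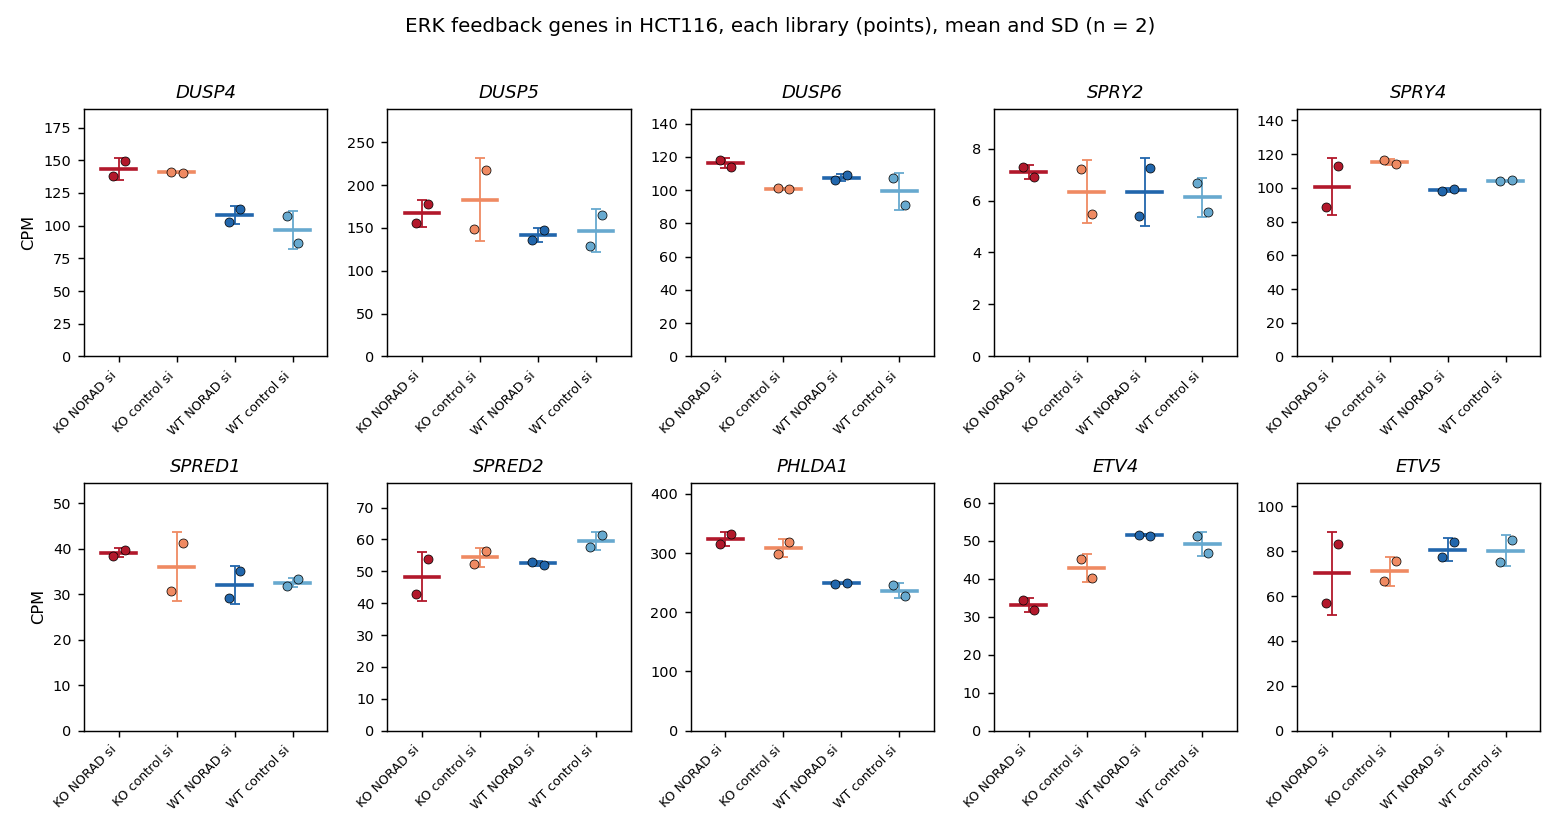
CPM of each gene in every HCT116 library, scaled within the cell line, from SAM68 KO with NORAD siRNA at left to WT with control siRNA at right (points, libraries; bar and whiskers, mean and SD, n = 2; axes start at 0). The SAM68 KO libraries lie above the WT libraries for DUSP4 and PHLDA1 and below them for ETV4, and the SAM68 KO and WT libraries of the other 7 genes overlap.

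Among the remaining phosphatases, DUSP5 had 156 and 178 CPM in SAM68 KO cells with NORAD siRNA and 149 and 217 CPM in SAM68 KO cells with control siRNA, against 136 and 148 CPM in WT cells with NORAD siRNA and 129 and 165 CPM in WT cells with control siRNA. Its log2 fold change was 0.28 ± 0.13 (SE, edgeR adjusted p 0.148), and the groups overlapped. With no filter on low counts the adjusted p of DUSP5 was 0.0294, and as single libraries were left out its log2 fold change ran from 0.13 (edgeR adjusted p 0.483, without the second SAM68 KO library with control siRNA) to 0.38 (edgeR adjusted p 0.0342, without the first). DUSP6 averaged 109 ± 9.01 CPM in SAM68 KO libraries and 103 ± 8.08 CPM in WT libraries (SD, n = 4 each), a log2 fold change of 0.07 ± 0.08 (SE, edgeR adjusted p 0.532). All 3 DUSP genes had positive log2 fold changes, and DUSP4 alone of them passed.

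The Sprouty and SPRED genes had small log2 fold changes in SAM68 KO cells. They were 0.10 ± 0.15 for SPRY2, 0.09 ± 0.09 for SPRY4, 0.22 ± 0.11 for SPRED1 and -0.12 ± 0.09 for SPRED2 (SE, n = 4 libraries each, edgeR adjusted p 0.64, 0.467, 0.177 and 0.349). SPRED1 averaged 37.6 ± 4.77 CPM in SAM68 KO libraries and 32.3 ± 2.49 CPM in WT libraries (SD). With the GC and length offset its log2 fold change was -0.01 (edgeR adjusted p 0.961). ETV5, the partner of ETV4 in the PEA3 family, averaged 70.5 ± 11.2 CPM in SAM68 KO libraries and 80.4 ± 4.91 CPM in WT libraries, a log2 fold change of -0.19 ± 0.12 (SE, edgeR adjusted p 0.274).

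Split by siRNA, the knockout comparison passed for DUSP4, PHLDA1 and ETV4 under NORAD siRNA and for none of the 10 genes under control siRNA. Under NORAD siRNA the log2 fold changes were 0.41 ± 0.12 for DUSP4, 0.38 ± 0.09 for PHLDA1 and -0.64 ± 0.11 for ETV4 (SE, n = 2 libraries each, edgeR adjusted p 0.0441, 0.0291 and 0.0149). Under control siRNA they were 0.54 ± 0.12 for DUSP4, 0.38 ± 0.09 for PHLDA1 and -0.20 ± 0.11 for ETV4 (edgeR adjusted p 0.15, 0.198 and 0.649). DUSP4 and PHLDA1 had unadjusted p-values under 0.05 there. DUSP4 passed there with DESeq2 (adjusted p 0.0258), with no filter on low counts (edgeR adjusted p 0.00847) and with the GC and length offset (edgeR adjusted p 0.0272). With edgeR on DESeq2's size factors, or with the effective length offset, 0 members passed there. Over all 10 alternatives, single libraries left out among them, DUSP4 under control siRNA passed in 4. Its log2 fold change ran from 0.39 to 0.70. Of all genes tested, 18.1% passed under NORAD siRNA and 0.312% under control siRNA. Whether the knockout effect on a gene differed between the siRNAs is the test of the difference given with the NORAD results. Groups did not overlap for 6 of 10 members under NORAD siRNA, against 68.7% of all genes, and for 5 of 10 under control siRNA, against 34.6%. Leaving out any single library of the NORAD siRNA groups ended all 3 calls, and the GC and length offset ended those of PHLDA1 (0.26, edgeR adjusted p 0.139) and ETV4 (-0.31, edgeR adjusted p 0.0577).

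With NORAD knockdown none of the 10 genes passed the test in either genotype. These comparisons share their libraries with the knockout comparisons. In SAM68 KO cells 0 of 10 passed edgeR's test or DESeq2's and 1, ETV4, had an unadjusted p under 0.05, while 0.00727% of all genes passed. In WT cells 0 of 10 passed either test or an unadjusted p of 0.05, again with 0.00727% of all genes passing, the gene in question being NORAD itself in both genotypes. The members' median log2 fold change was 0.01 in SAM68 KO cells and 0.02 in WT cells, and 0.00 for all genes in both. Groups did not overlap for 3 of 10 members in SAM68 KO cells, against 43.5% of all genes, and for 4 of 10 in WT cells, against 27% of all genes.

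ETV4 had its values furthest apart between the genotypes. Its log2 fold change with NORAD siRNA was -0.37 ± 0.12 in SAM68 KO cells and 0.07 ± 0.11 in WT cells (SE, n = 2 libraries each, edgeR adjusted p 0.428 and 0.999). The difference of these effects was -0.44 ± 0.16, with an unadjusted p of 0.023 and an edgeR adjusted p of 0.642. With the GC and length offset the ETV4 value in SAM68 KO cells was -0.18 (edgeR adjusted p 0.996). The difference was then -0.18 as well. No member passed this test of the difference with edgeR or DESeq2, and 0% of all genes tested passed with edgeR. For DUSP4 and PHLDA1 the differences were -0.13 ± 0.17 and -0.01 ± 0.13 (SE, edgeR adjusted p 0.796 and 0.993).

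**Figure D3:**
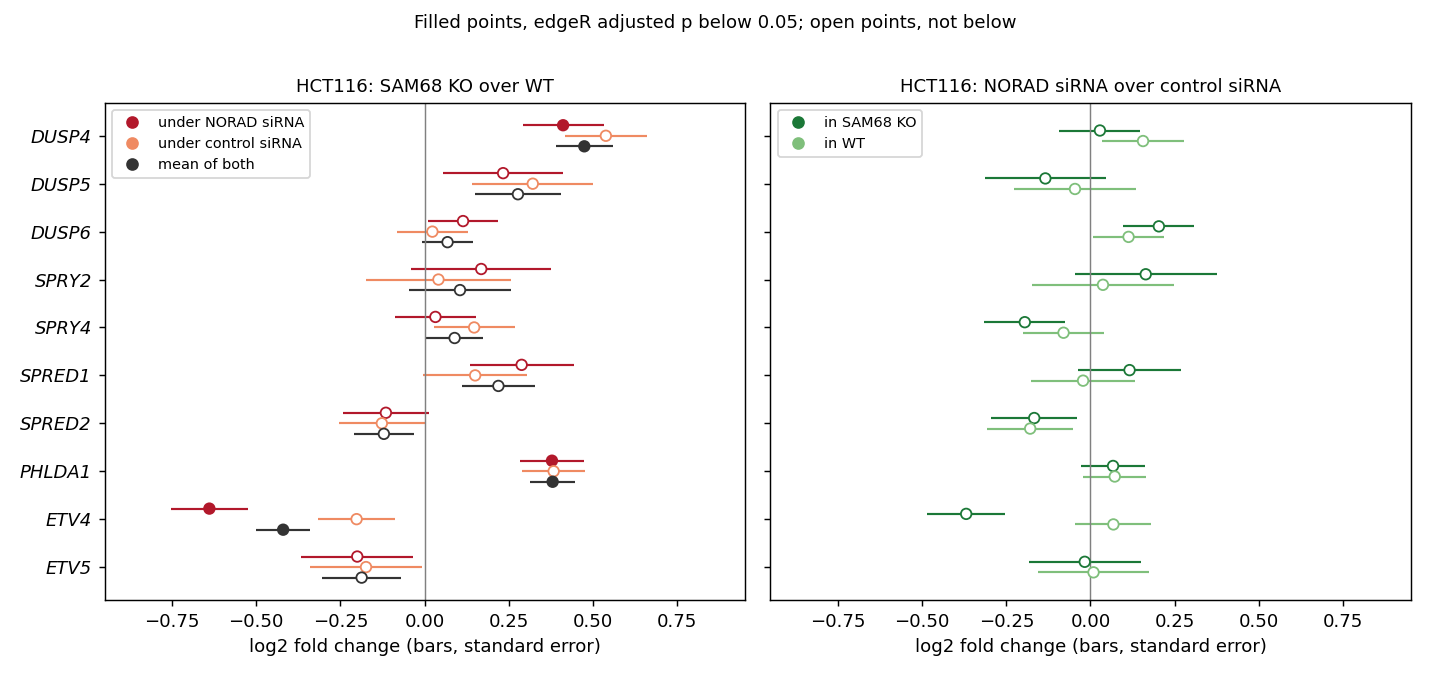
Log2 fold changes with standard errors in HCT116, at left for SAM68 KO over WT under NORAD siRNA, under control siRNA and for the mean of both, and at right for NORAD siRNA over control siRNA in SAM68 KO and in WT cells. Filled points have an edgeR adjusted p under 0.05 and occur only for DUSP4, PHLDA1 and ETV4 in the knockout panel, and ETV4 with NORAD siRNA lies at -0.37 in SAM68 KO cells and 0.07 in WT cells.

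Because NORAD is known to sequester Pumilio proteins, which shorten the life of the messages they bind, the longest annotated 3′ untranslated region of each gene was searched for the Pumilio site TGTANATA (N, any base; sense strand only; GENCODE 29, GRCh38). All members except DUSP5 held at least 1 match, 9 of 10 genes, against 25.5% of 18892 genes with such a region. The members' regions were mostly long: 7 had 2000 bases or more, and 50.8% of all genes of that length held a match. The 10 genes had 25 matches in all, 0.91 per kilobase, against 0.22 per kilobase over all genes. The regions were not matched for base composition, so these figures do not show that the set is rich in Pumilio sites. PHLDA1 had 6, SPRED1 had 5, DUSP4, SPRY4 and SPRED2 had 3 each, DUSP6 had 2, and SPRY2, ETV4 and ETV5 had 1 each. Sites of ETV4 and PHLDA1, which passed in SAM68 KO cells, and of DUSP6 are shown, with the match in capitals and 11 bases on each side. They lie at chr17:43528457-43528486 for ETV4, chr12:76029045-76029074 and chr12:76028230-76028259 for PHLDA1 and chr12:89348741-89348770 for DUSP6, all on the minus strand.
ETV4: gtgctgccctgTGTACATAtaaatgaatct
PHLDA1 site nearest the stop codon: aaagtacaattTGTAAATAtttcaaaggtc
PHLDA1 site in the crowded stretch: atgaatatgtaTGTATATAtacatatatga
DUSP6: catttgattatTGTAAATAtttgatcttga

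The ETV4 site began at base 44 of its region, and 4 of the 6 PHLDA1 sites began between bases 1839 and 1935 of its region. With NORAD siRNA, PHLDA1 had log2 fold changes of 0.07 ± 0.09 in both SAM68 KO and WT cells (SE, n = 2 libraries each). SPRED1 had 0.12 ± 0.15 in SAM68 KO cells and -0.02 ± 0.15 in WT cells. DUSP5, with no match, had -0.13 ± 0.18 in SAM68 KO cells and -0.05 ± 0.18 in WT cells. The members furthest from 0 in SAM68 KO cells were ETV4 at -0.37 ± 0.12, DUSP6 at 0.20 ± 0.11 and SPRY4 at -0.19 ± 0.12. They lay on both sides of 0, and none passed (edgeR adjusted p 0.428, 0.473 and 0.519). With the GC and length offset ETV4, DUSP6 and SPRY4 were at -0.18, 0.18 and -0.13. That they held matches says nothing of the sites, because every member but DUSP5 held one. In WT cells ETV4 had 0.07 ± 0.11, DUSP6 0.11 ± 0.11 and SPRY4 -0.08 ± 0.12.

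In U2OS, none of the genes that could be tested passed after knockdown or overexpression of SAM68. DUSP4 and SPRY4 failed the low-count filter there, which left 8 members. With SAM68 siRNA 0 of 8 passed edgeR's test, DESeq2's test or an unadjusted p of 0.05, and 0.00639% of all 15658 genes tested passed. With the SAM68 plasmid the same 3 counts were 0, and again 0.00639% of all genes passed. Median log2 fold changes of the members were 0.08 with the siRNA and 0.08 with the plasmid, against -0.01 and 0.01 for all genes. Replicates of U2OS were also more spread, with a biological coefficient of variation of 20%, against 11.3% for HCT116. Standard errors of the 8 members with SAM68 siRNA ran from 0.18 for ETV4 to 0.52 for DUSP6. KHDRBS1 itself, at -1.94 ± 0.25 with the siRNA and 1.18 ± 0.24 with the plasmid, had edgeR adjusted p of 0.185 and 1.

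PHLDA1 was the member with the smallest p after SAM68 siRNA. It had 24.4 and 27.9 CPM with SAM68 siRNA against 35.6 and 33.4 CPM with control siRNA, a log2 fold change of -0.40 ± 0.20 (SE, n = 2 libraries each, unadjusted p 0.0773, edgeR adjusted p 1). It was the only member whose groups did not overlap, 1 of 8 against 18.9% of all genes. With the SAM68 plasmid PHLDA1 had 13.0 and 16.7 CPM against 14.2 and 13.99 CPM with the control plasmid, and no member's groups were apart, where 18% of all genes had groups that did not overlap. ETV4 had 75.7 and 82.2 CPM with SAM68 siRNA against 84.2 and 80.4 CPM with control siRNA, and 176 and 139 CPM with the SAM68 plasmid against 139 and 162 CPM with the control plasmid. ETV4's log2 fold changes were -0.06 ± 0.18 and 0.07 ± 0.18 (SE). The other genes tested had log2 fold changes from -0.32 to 0.37 with the siRNA and from -0.16 to 0.20 with the plasmid.

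**Figure D4:**
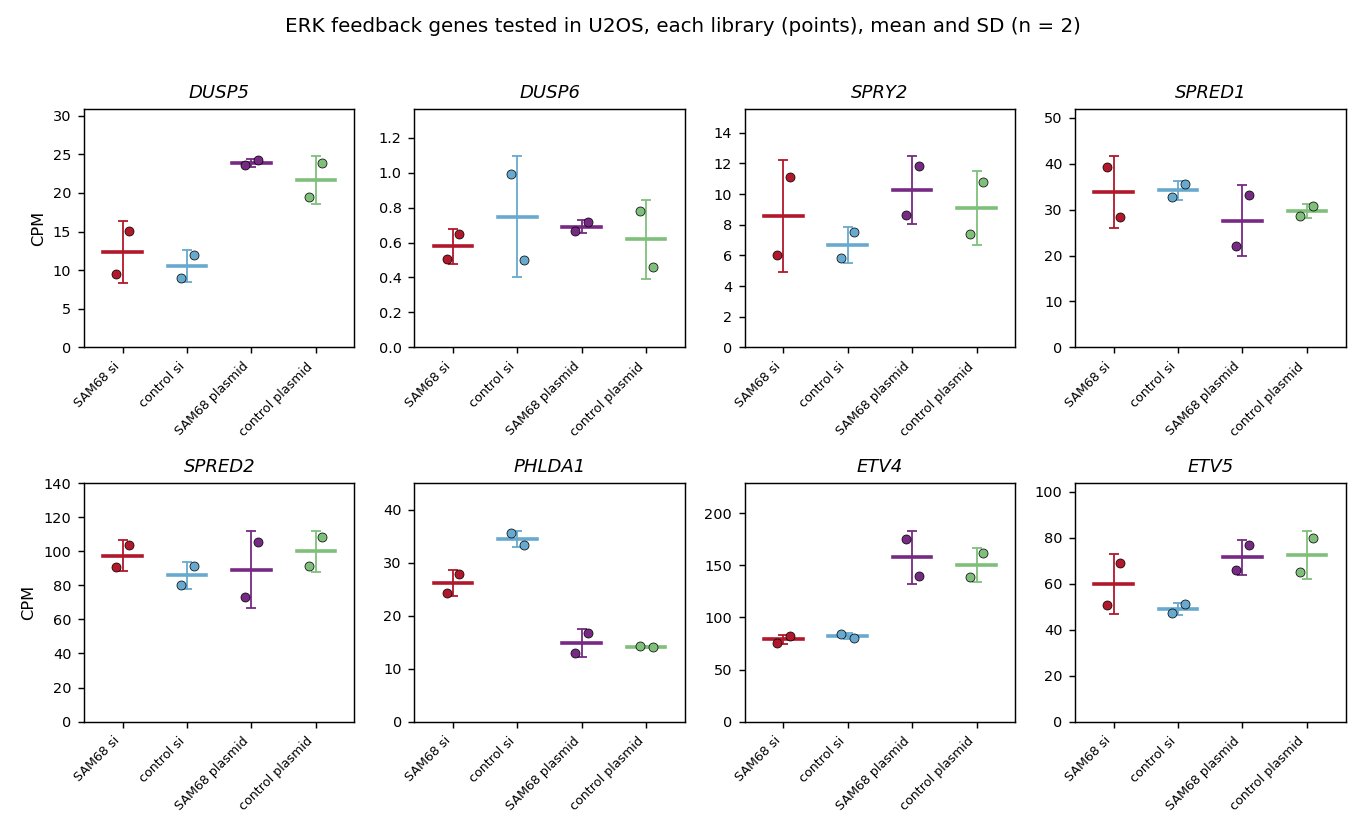
CPM of the 8 genes tested in U2OS, in every library of the cell line (points, libraries; bar and whiskers, mean and SD, n = 2; axes start at 0), with SAM68 siRNA left of control siRNA and SAM68 plasmid left of control plasmid. PHLDA1 lies between 13.0 and 16.7 CPM in the plasmid libraries and between 24.4 and 35.6 CPM in the siRNA libraries.

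The plasmid and siRNA arms of U2OS differed in PHLDA1. This comparison, of control plasmid against control siRNA, was added after the values were seen. PHLDA1 had 14.2 and 13.99 CPM with control plasmid against 35.6 and 33.4 CPM with control siRNA, a log2 fold change of -1.29 ± 0.20 (SE, n = 2 libraries each, edgeR adjusted p 0.0265). It was the 1 of 8 members that passed, where 1.3% of all genes did. DUSP5 had 19.5 and 23.8 CPM with control plasmid against 9.02 and 11.96 CPM with control siRNA, a log2 fold change of 1.04 ± 0.26 (edgeR adjusted p 0.0785). ETV4 had 139 and 162 CPM with control plasmid against 84.2 and 80.4 CPM with control siRNA, a log2 fold change of 0.87 ± 0.18 (edgeR adjusted p 0.0588). DUSP5 and ETV4 passed with DESeq2 (adjusted p 0.00753 and 0.00176) and with no filter on low counts (edgeR adjusted p 0.00695 and 0.00882). Both also passed with the GC and length offset (edgeR adjusted p 0.0228 and 0.0249), and ETV5 passed with that offset alone (edgeR adjusted p 0.0498). Genes called in these 3 settings numbered 1022, 1609 and 1419, against 204 with none of these changes. DUSP5 and ETV4 each passed in only 3 of 10 alternatives, single libraries left out among them. Over these their log2 fold changes ran from 0.887 to 1.35 and from 0.645 to 0.993. PHLDA1 no longer passed when any single library of the 4 was left out, its edgeR adjusted p then running from 0.146 to 0.369. Nucleic acid, empty vector and any batch of the arms cannot be told apart, and the median over all genes was -0.11, or -0.02 with DESeq2's size factors. Among the pathway lists, FOSL1, a FOS family factor, and MYC were higher with the control plasmid, at 2.01 ± 0.20 and 1.21 ± 0.17, and the receptors PDGFRA and FGFR2 were lower, at -1.81 ± 0.21 and -1.005 ± 0.20 (edgeR adjusted p 0.0107, 0.0172, 0.0129 and 0.0478). Between 0 and 2 of these 4 passed as single libraries were left out.

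Other genes of the pathway are read against the 17.6% of all genes that passed for SAM68 KO over WT with both siRNAs, and shares near it say nothing particular of a list. Of 15 genes of the core cascade, 2 rose and 0 fell over both siRNAs: SHOC2, a scaffold that helps activate RAF, at 0.46 ± 0.10, and NRAS, a RAS protein, at 0.29 ± 0.07 (SE, edgeR adjusted p 0.0211 and 0.0264). Of 18 other negative regulators, 1 rose, RASA1, a RAS inactivator, at 0.32 ± 0.09, and 2 fell, the phosphatases DUSP9 at -0.46 ± 0.12 and DUSP7 at -0.32 ± 0.08 (edgeR adjusted p 0.0341, 0.0284 and 0.0283). The list medians were 0.04 for the core cascade and 0.09 for the negative regulators, against -0.01 for all genes.

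Of 15 other transcripts known to be induced by ERK, 3 rose and 1 fell in SAM68 KO cells, again beside 17.6% of all genes. EPHA4, an ephrin receptor, was at 0.69 ± 0.15, CCND1, cyclin D1, at 0.31 ± 0.08, and LIF, a cytokine, at 0.29 ± 0.07, while EGR1, an immediate-early transcription factor, was at -0.50 ± 0.10 (SE, edgeR adjusted p 0.02, 0.0291, 0.0299 and 0.0138). Of 10 other ETS factors, EHF, an epithelial one, at 0.64 ± 0.11 and GABPA, a widely expressed one, at 0.27 ± 0.08 rose and ERF, an ETS repressor that ERK inactivates, fell at -0.51 ± 0.14 (edgeR adjusted p 0.00936, 0.0498 and 0.033). Of 9 receptors tested, 0 rose and 2 fell, ERBB2 at -0.34 ± 0.08 and FGFR1 at -0.24 ± 0.07 (edgeR adjusted p 0.02 and 0.0393). List medians were 0.10 for the ERK-induced genes, 0.05 for the ETS factors and -0.12 for the receptors. Under NORAD siRNA alone, where 18.1% of all genes passed, 0 of the 15 ERK-induced transcripts rose and 2 fell. They were EGR1 at -0.60 ± 0.14 and FOSL1 at -0.37 ± 0.10 (edgeR adjusted p 0.0241 and 0.0336). In that comparison 2 genes rose and 1 fell in each of the core cascade, negative regulator and ETS lists. Of the receptors 0 rose and 2 fell. Under control siRNA alone no gene of the 5 lists passed. Of the 14 list genes that passed over both siRNAs, 8 passed with the GC and length offset (not SHOC2, NRAS, DUSP7, DUSP9, GABPA or FGFR1). As single libraries were left out, 0 to 12 of the 14 passed, with 0 without the first WT library with NORAD siRNA. EGR1 and FOSL1 under NORAD siRNA alone passed neither with the GC and length offset nor when either WT library or the first SAM68 KO library was left out. FOSL1 also did not pass without the second SAM68 KO library or with the effective length offset.

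Between U2OS and WT HCT116, 1 of 15 other ERK-induced transcripts was higher and 10 were lower in U2OS, with a list median of -0.59 against 0.10 for all genes. In this comparison 65.4% of all genes passed, 5862 higher and 4898 lower in U2OS. Totals of both directions near that share are not particular to the lists. Whether the direction was particular to the ERK-induced list was not tested. The lower ERK-induced transcripts included MYC, a growth-promoting factor, at -1.90 ± 0.14, FOSL1 at -1.84 ± 0.15 and CCND1 at -1.69 ± 0.16 (SE, edgeR adjusted p 3.01e-08, 9.4e-08 and 3.77e-07). Of 18 other negative regulators 6 were higher and 7 lower. ERRFI1, an inhibitor of the EGF receptor, at -3.04 ± 0.20 and SPRY1, another Sprouty gene, at -9.04 ± 0.77 were among the lower ones (edgeR adjusted p 1.02e-08 and 1.1e-06). SPRED3, another SPRED gene, at 3.40 ± 0.27 and DUSP10, a phosphatase of the p38 and JNK kinases, at 3.23 ± 0.32 were higher (edgeR adjusted p 7.45e-08 and 7.86e-07). Of 15 core cascade genes 4 were higher and 5 lower, with a median of 0.10, and of 11 receptors 3 were higher and 6 lower, with a median of -0.61. The higher receptors included PDGFRA at 12.09 ± 0.52 and PDGFRB at 7.34 ± 0.34, and the lower ones FGFR3 at -3.58 ± 0.25 (edgeR adjusted p 1.17e-08, 4.32e-10 and 2e-08). Of 10 other ETS factors 3 were higher, ETS1 at 2.38 ± 0.20 among them, and 3 lower, with EHF at -6.28 ± 0.25 (edgeR adjusted p 1.18e-07 and 1.23e-10). No gene of the 5 lists passed after SAM68 siRNA, SAM68 plasmid or NORAD siRNA.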

How the data were processed

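RNA of 16 libraries was sequenced after poly(A) selection with a strand-specific TruSeq kit, per the labels' protocols. Per the submitters' processing notes, the authors used STAR, RSEM and hg19. Their versions and RSEM's strand setting were not stated in the labels. The deposited tables, 1 a library, hold the authors' expected counts, TPM and effective lengths for 27434 gene rows, of which 25321 were named by gene number. The members and lists were chosen with earlier results of these data known. The 10 members were named whatever their values, with KHDRBS1 and NORAD as label checks and up to 3 genes past the threshold with the smallest p per list and direction. 1 core cascade gene is not reported here.

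Expected counts were rounded to whole numbers and filtered with filterByExpr (minimum count 10, minimum total 15). They were scaled by TMM and tested with edgeR 4.0.16's quasi-likelihood test in R 4.3.3 (limma 3.58.1), U2OS and HCT116 apart and all libraries together between lines. P-values were adjusted by Benjamini-Hochberg over all genes, with a threshold of 0.05, and standard errors were derived from the F statistic. The test recovered known changes on simulated counts. Those changes were larger than any tested member's change within a cell line, and the simulated spread was below that of either line. The simulation therefore does not measure the power to find changes as small as those of the members. CPM within a line used that line's scaling, and CPM per kilobase used all libraries and the deposited effective length. Alternatives were DESeq2 1.42.0 (test and size factors), no filter, a replicate block, a GC and length offset, an effective length offset and leaving out each library. Promoters came from RefSeq (GRCh38.p14), and 3′ untranslated regions and transcript GC from GENCODE 29 (GRCh38). These coordinates are not those of hg19. Totals of 11349545 to 27387412 counts a library limit precision for genes with few reads, and intervals cover counting error only.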

Additional observations from a re-analysis of the deposited data

How the results depend on the processing

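Of 1030 member values recomputed, 899 kept their direction and side of the threshold, 87 changed direction with no call either way, 24 were no longer called, 20 were newly called and 0 called values reversed. Between U2OS and HCT116 the 7 members called passed under all 10 alternatives. In SAM68 KO over WT for both siRNAs, members called numbered 3, or 0 to 4 as single libraries were left out. Under NORAD siRNA they numbered 3, with 1 under the GC and length offset and 0 whenever a library was left out, and under control siRNA 0, with 1 under DESeq2, no filter or the offset. For control plasmid over control siRNA the number was 1, with 3 under DESeq2 or no filter, 4 under the offset and 0 whenever a library was left out.

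Genes called moved more. With DESeq2 they numbered 7 for SAM68 siRNA, 4 for SAM68 plasmid, 112 for SAM68 KO under control siRNA, 8 for NORAD siRNA in SAM68 KO and 5 in WT cells, 2 for their difference and 1022 for control plasmid over control siRNA. With no filter they numbered 27, 15, 272, 61, 33, 30 and 1609 in the same order, with 3965 for SAM68 KO under NORAD siRNA and 3772 under both. With the GC and length offset they numbered 0 for SAM68 siRNA, 0 for SAM68 plasmid, 228 for SAM68 KO under control siRNA, 644 under NORAD siRNA, 2 for NORAD siRNA in SAM68 KO cells and 1419 for control plasmid. Leaving out single libraries gave 0 to 5 genes for SAM68 siRNA, 0 to 4 for the plasmid, 20 to 41 for SAM68 KO under control siRNA, 19 to 747 under NORAD siRNA, 201 to 3144 under both, 0 to 4 for NORAD siRNA in SAM68 KO and 1 to 2 in WT cells, 0 to 1 for their difference and 1 to 54 for control plasmid. Fewer samples left fewer degrees of freedom there, and otherwise the cause was not tested.

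Replicate numbers did not pair the libraries by the labels. With 2 libraries a group there were 2 pairs, and deviations of same-numbered libraries correlated at 0.38 between the U2OS siRNA groups, -0.04 between the plasmid groups, 0.16 and 0.10 between siRNAs in WT and SAM68 KO cells, and 0.32 and 0.08 between genotypes under control and NORAD siRNA. With a replicate block, genes called numbered 0 for SAM68 siRNA, 0 for the plasmid, 254 for SAM68 KO under control siRNA, 5539 under NORAD siRNA, 5247 under both, 3 and 7 for NORAD siRNA in WT and SAM68 KO cells and 2 for their difference. Members called with the replicate block were 2 under control siRNA (DUSP4 and PHLDA1). Under both siRNAs they were 6 (with DUSP5, SPRED1 and ETV5 added), beside 5247 of the 13764 genes tested. The block together with the GC and length offset was added after seeing the data. It called 5 members and 3080 genes under both siRNAs.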
